A study of Mus musculus with 15 samples.

Results

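CHIR99021, an inhibitor of the kinase GSK3, and PD0325901, an inhibitor of the kinase MEK, are the pair of compounds that make up 2i medium, in which mouse embryonic stem (ES) cells self-renew. The comparison here sets ES cells left in CHIR99021 alone against ES cells left in PD0325901 alone, both without the cytokine LIF. It rests on 6 arrays picked by their sample titles, 3 of the CHIR group and 3 of the PD03 group, of 15 arrays in the series. All 19937 genes that the array annotation names were compared.

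Total RNA was measured on Affymetrix whole-transcript arrays, and each value is a log2 signal per probe set, so a difference of 1 is a 2-fold difference. The CHIR group kept only CHIR99021, at 3 µM, and the PD03 group only PD0325901, at 1 µM, for the last 24 h before RNA was taken. The 2i group kept both compounds at these doses without LIF for the same 24 h, the 2iLIF group had both compounds and LIF in long-term culture, and the DMSO group had neither compound and no LIF for 24 h. Each of these groups also had 3 arrays. All 5 groups are of 1 ES line that had been adapted to 2i, named Ctnnb1-BioFLneo;BirA, so tagged beta-catenin and the biotin ligase BirA are present in every group, and no other line bears on these values. Separate cultures are not stated for the replicates, so the p-values cover the spread among these arrays, part or all of which may be technical.

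GSK3 belongs to the complex that marks beta-catenin for destruction. When GSK3 is inhibited, beta-catenin accumulates and acts through TCF/LEF factors on Wnt target genes, among them several that restrain the pathway. MEK activates ERK, which in ES cells relays the FGF4 signal and switches on its own inhibitors, the Dusp phosphatases and the Sprouty proteins. Both inhibitors are known to favour the naive state of ES cells, in which the cells resemble the epiblast before implantation.

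The groups differed at many genes by small amounts. Genes are called different where limma's p, adjusted by Benjamini-Hochberg over all 19937 genes, was under 0.05, and passing refers to this rule. Higher, lower, rose and fell describe CHIR cells against PD03 cells unless DMSO is named. By it, 5149 genes (25.8%) differed between CHIR and PD03 cells, 2515 (12.6%) higher and 2634 (13.2%) lower in CHIR cells. With each array centred on its own median, the split was 3827 higher and 1748 lower. The absolute log2 difference of the genes that passed had a median of 0.24 and a 90th percentile of 0.54. A difference of at least 2-fold was found for 139 genes (0.697%), 79 higher (0.396%) and 60 lower (0.301%) in CHIR cells. The median difference over all genes was −0.014, and 0.042 with each array centred on its median.

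The 6 arrays grouped by their labels. On the second principal component of the 15 arrays, which held 21.2% of the variance, the CHIR arrays lay between −15.1 and −13.81 and the PD03 arrays between 13.92 and 16.78. The 2i arrays, at −1.44 to 0.55, and the DMSO arrays, at −5.31 to −1.23, stood between them. On the first component, with 51.7% of the variance, the CHIR arrays lay at −0.33 to 1.91 and the PD03 arrays at 8.15 to 8.75. There both groups stood between the 2i arrays (−8.81 to −8.27) and the DMSO arrays (19.95 to 23.5). The mean of 9 ES cell markers, among them Pou5f1, Sox2 and Nanog, was 11.75 to 11.79 on CHIR arrays, 11.81 to 11.84 on PD03 arrays and 11.66 to 11.67 on DMSO arrays, where the 75th percentile of all genes was 9.49. Of 10 markers of fibroblasts or feeder cells 0 passed in limma, and their mean level was 6.21 to 6.27 on CHIR arrays and 6.22 to 6.32 on PD03 arrays, below the median gene at 7.4. At an unadjusted p under 0.05, 7026 of all genes differed.

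Wnt/beta-catenin targets and feedback genes were more often higher than lower in CHIR cells. Of 18 measured members 9 were higher, 1 was lower and 8 did not pass, with a median difference of 0.15. Axin2, the scaffold of the destruction complex and a classic feedback target of beta-catenin, read 9.30, 9.37 and 9.25 in CHIR cells, against 7.63, 7.63 and 7.72 in PD03 cells. All 3 CHIR arrays were above all 3 PD03 arrays, and the difference was 1.65 ± 0.08 (SE), or 3.13-fold (limma, adjusted p = 4.28e-10). Tnfrsf19, a TNF receptor family member known as Troy, read 9.13, 9.06 and 9.06 in CHIR cells and 7.19, 7.22 and 7.25 in PD03 cells. Its difference was 1.87 ± 0.04, or 3.64-fold. The transcription factor Sp5 was 0.60 ± 0.07 higher, its relative Sp8 0.45 higher, and Znrf3, a ubiquitin ligase that removes Wnt receptors from the membrane, 0.45 higher.

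The levels in DMSO cells place these differences. Axin2 averaged 9.19 in 2i cells and 7.86 in DMSO cells, so that it was 1.45 above DMSO in CHIR cells and −0.19 from DMSO in PD03 cells. Tnfrsf19 was 1.70 above DMSO in CHIR cells and −0.17 from it in PD03 cells. Over the list, 8 of 18 members were higher and 4 lower in CHIR than in DMSO cells (10% and 10.8% of all genes), and 1 was higher and 6 were lower in PD03 than in DMSO cells (8.67% and 8.15% of all genes). These comparisons share the DMSO arrays, and each shares its inhibitor arrays with the direct one. Myc, also on the list, was 0.59 higher in CHIR than in PD03 cells. It was below DMSO in both groups, by −0.41 in CHIR cells and −1.0 in PD03 cells. Lef1, a DNA-binding partner of beta-catenin, was 0.20 higher in CHIR than in PD03 cells while both groups lay below DMSO, by −0.50 in CHIR cells and −0.70 in PD03 cells. The exception among the members was Notum, a secreted enzyme that inactivates Wnt proteins, which was −0.51 lower in CHIR cells, 0.29 from DMSO in CHIR cells and 0.80 from DMSO in PD03 cells.

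Windows around the starts of 2 of these genes and of Gmnc, the gene with the highest difference of all, are printed because they hold the letters that TCF/LEF factors recognise. Each runs from 250 bases before to 50 bases after a RefSeq start (GRCm38.p6), 5′ to 3′ on the gene's own strand, with a match to CTTTGAA or CTTTGAT on either strand in capitals. They are the windows of Tnfrsf19 (chr14:61037938-61038237, minus strand), Sp5 (chr2:70474673-70474972, plus strand) and Gmnc (chr16:26991603-26991902, minus strand), whose matches begin −202, −104 and −175 bases from the start.
Tnfrsf19: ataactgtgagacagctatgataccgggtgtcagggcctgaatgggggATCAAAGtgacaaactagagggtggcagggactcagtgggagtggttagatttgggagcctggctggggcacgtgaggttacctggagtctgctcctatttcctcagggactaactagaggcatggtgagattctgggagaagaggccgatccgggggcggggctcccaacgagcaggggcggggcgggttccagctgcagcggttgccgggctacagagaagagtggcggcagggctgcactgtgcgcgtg
Sp5: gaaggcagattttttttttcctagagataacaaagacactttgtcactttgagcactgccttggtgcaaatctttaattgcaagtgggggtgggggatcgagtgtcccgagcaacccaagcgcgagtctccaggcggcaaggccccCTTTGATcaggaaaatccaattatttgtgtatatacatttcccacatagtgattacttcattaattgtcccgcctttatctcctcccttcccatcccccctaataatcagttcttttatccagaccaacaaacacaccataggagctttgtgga
Gmnc: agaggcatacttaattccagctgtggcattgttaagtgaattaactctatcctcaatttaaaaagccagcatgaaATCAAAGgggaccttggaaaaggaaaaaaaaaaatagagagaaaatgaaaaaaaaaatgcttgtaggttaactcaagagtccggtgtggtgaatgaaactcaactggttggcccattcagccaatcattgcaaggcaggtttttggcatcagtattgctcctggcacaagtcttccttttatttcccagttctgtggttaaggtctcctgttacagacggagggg
Such a match was present in 8.65% of all 32851 windows. Of the 9 list members that were higher in CHIR cells 6 had a window, and 3 of their 12 windows held a match. A further RefSeq window of Tnfrsf19 and one of Gmnc held 0 matches. Axin2 had 1 window and 0 matches in it. A match is a description of letters and not a binding site.

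**Figure D1:**
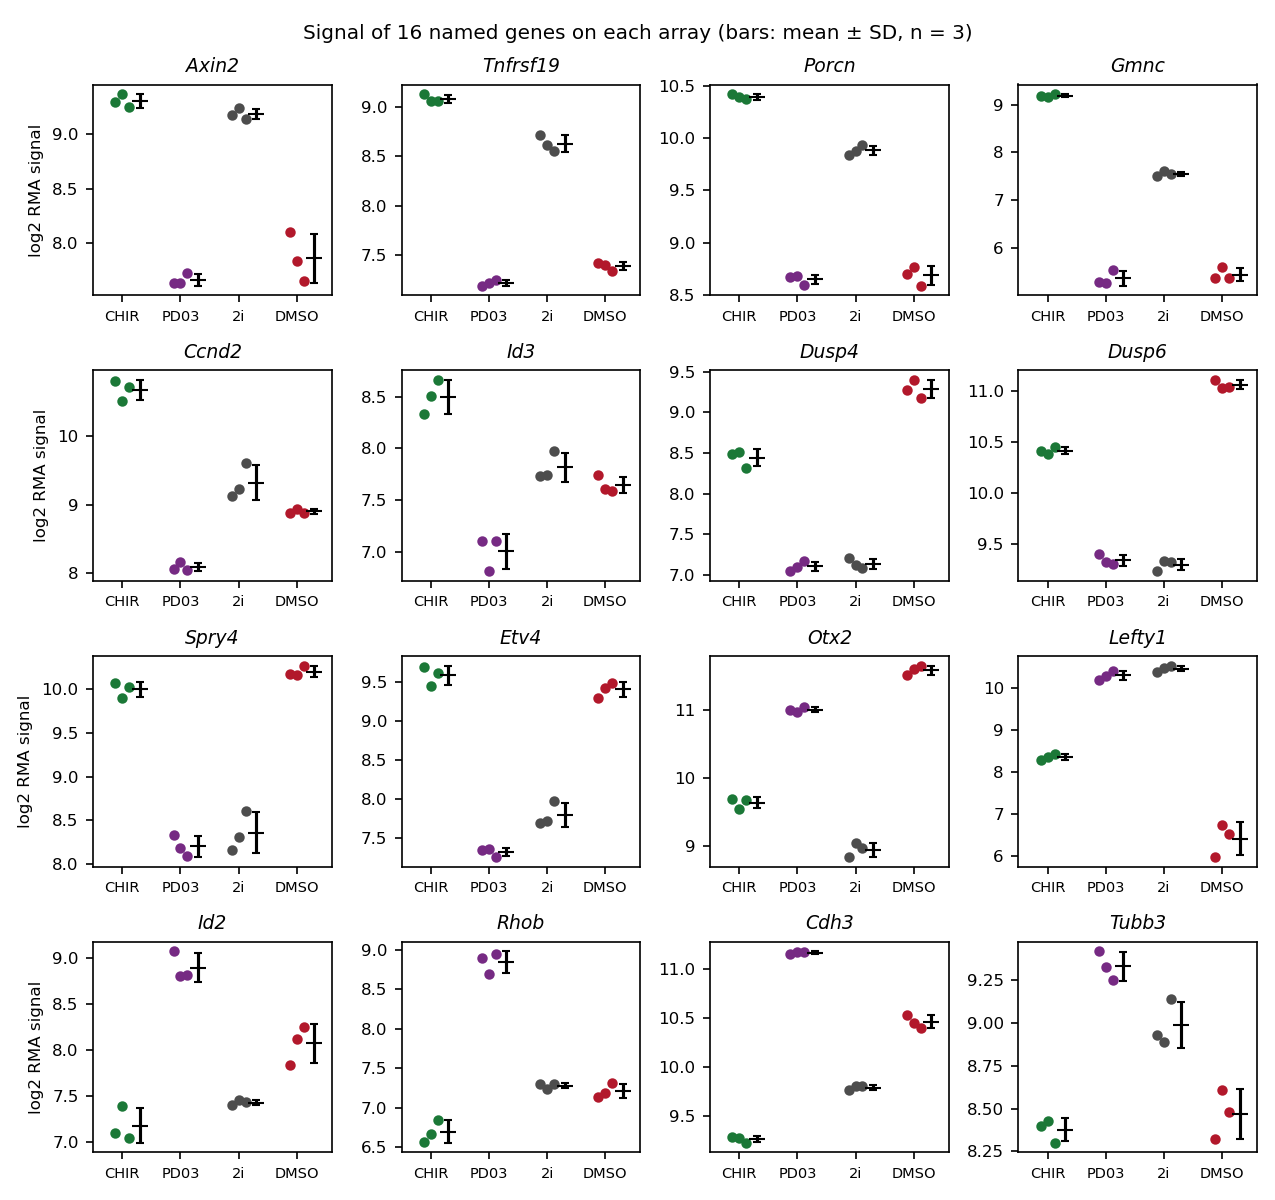
Signal of 16 named genes on each array (log2 RMA signal, vertical axes that do not start at 0) in the CHIR, PD03, 2i and DMSO groups, with the mean ± SD of 3 arrays beside the points. The CHIR and PD03 points do not overlap in any panel; Axin2 lies between 9.25 and 9.37 in CHIR cells and between 7.63 and 7.72 in PD03 cells.

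Among the proteins that carry the Wnt signal the differences were smaller. Of 18 genes for beta-catenin, its destruction complex and its DNA-binding partners, 1 was higher and 6 were lower in CHIR cells (2 and 4 with median centring). Tcf7l1, the TCF factor known as a repressor of naive genes in ES cells, read 10.29, 10.17 and 10.15 in CHIR cells and 10.96, 10.93 and 10.88 in PD03 cells. The groups did not overlap, and the difference was −0.72 ± 0.04 (limma, adjusted p = 4.6e-09). Tcf7l2 was −0.32 lower and the co-repressor gene Tle3 −0.28 lower. Ctnnb1 itself, the tagged gene, differed by −0.12 ± 0.03 (adjusted p = 0.0116), which no longer passed with median centring or without PD03 replicate 2 (highest adjusted p = 0.258).

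Wnt ligands, receptors and secreted inhibitors moved in both directions, with 7 of 32 higher and 4 lower. Porcn, the enzyme that attaches the lipid Wnt proteins need for secretion, read 10.42, 10.39 and 10.37 in CHIR cells and 8.67, 8.68 and 8.60 in PD03 cells. That is 1.74 ± 0.04, or 3.35-fold, higher in CHIR cells, with PD03 cells −0.04 from DMSO. The ligand Wnt8a was 0.83 higher and Wnt5b 0.50 higher. Sfrp1, a secreted Wnt inhibitor, ran the other way at 10.87, 10.97 and 10.82 in CHIR cells and 11.88, 11.90 and 11.89 in PD03 cells. Sfrp1 was above its DMSO mean of 10.06 in both groups, by 0.82 in CHIR cells and 1.83 in PD03 cells.

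The genes with the highest differences were mostly outside these lists. Gmnc, which encodes the geminin coiled-coil regulator known from multiciliated cells, stood first. It read 9.19, 9.16 and 9.22 in CHIR cells and 5.28, 5.27 and 5.54 in PD03 cells. The difference was 3.83 ± 0.08, or 14.2-fold (limma, adjusted p = 2.15e-14), and the PD03 cells were −0.08 from DMSO, below the 25th percentile of all genes at 5.84. Nt5e, the surface enzyme CD73 that makes adenosine, read 9.78, 9.70 and 9.75 in CHIR cells and 6.39, 6.63 and 6.51 in PD03 cells, a difference of 3.23 ± 0.08. Pglyrp1, a secreted peptidoglycan recognition protein, was 2.90 ± 0.10 higher, and it was above DMSO in both groups, by 3.57 in CHIR cells and 0.67 in PD03 cells.

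The next genes by the same rule were Ct55 (2.74), Ccnd2 (2.58), Itga1 (2.49), Rerg (2.39), Btla (2.39), Ntn1 (2.31), Etv4 (2.27), Ctsc (2.23), Nlrc4 (2.21), Prtg (2.16), Plagl1 (2.09) and Nefm (2.02). They include an integrin subunit (Itga1), the guidance factor netrin-1 (Ntn1), the lysosomal protease cathepsin C (Ctsc) and a neurofilament subunit (Nefm). Their positions against DMSO differed. Nefm was 2.02 above DMSO in CHIR cells and −0.00 from it in PD03 cells, and Btla 2.44 and 0.05. Ct55, a cancer/testis antigen gene, was 1.57 above DMSO in CHIR cells and −1.16 below it in PD03 cells, and Itga1 1.59 above and −0.90 below.

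Cyclin D2 was the cell cycle gene with the widest gap. Ccnd2 read 10.79, 10.51 and 10.71 in CHIR cells and 8.06, 8.16 and 8.05 in PD03 cells, against a mean of 8.90 in DMSO cells. The CHIR arrays were above and the PD03 arrays below DMSO, and the direct difference was 2.58 ± 0.11, or 5.98-fold (limma, adjusted p = 7.66e-11). Its partner kinase Cdk6 was 0.65 ± 0.04 higher in CHIR cells. Of 19 cyclins, kinases and inhibitors 4 were higher and 6 lower in CHIR cells, against 7 higher and 4 lower with median centring. The lower ones included the growth restrainers Rb1 (−0.54), Cdkn2b (−0.41), Cdkn1c (−0.32) and Cdkn1b (−0.19). Of 20 genes of cell cycle phases 1 was higher and 7 were lower, none by more than 0.20. With median centring 1 was higher and 1 lower, and 5 passed without CHIR replicate 1 or 2 and 4 without PD03 replicate 1.

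ERK feedback and response genes were higher in CHIR cells than in PD03 cells at 12 of 21 members and lower at 1. Against DMSO, 2 members were higher and 8 lower in CHIR cells (10% and 10.8% of all genes). In PD03 cells 1 was higher and 15 were lower than in DMSO cells (8.67% and 8.15% of all genes). Etv4, an ETS factor downstream of FGF, read 9.69, 9.45 and 9.62 in CHIR cells and 7.34, 7.35 and 7.25 in PD03 cells. Spry4, a Sprouty inhibitor of the cascade, read 10.07, 9.90 and 10.02 in CHIR cells and 8.33, 8.18 and 8.09 in PD03 cells. For both genes the CHIR arrays were near the DMSO level and the PD03 arrays well below it. Etv4 differed by 2.27 ± 0.08 (adjusted p = 1.06e-11) and Spry4 by 1.80 ± 0.09 (adjusted p = 9.02e-10), both by limma. Against DMSO, Etv4 differed by 0.18 in CHIR cells (adjusted p = 0.12) and −2.09 in PD03 cells, and Spry4 by −0.20 (adjusted p = 0.15) and −2.0.

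The phosphatases of the list lay between. Dusp4, a nuclear phosphatase of ERK, read 8.49, 8.51 and 8.32 in CHIR cells and 7.05, 7.10 and 7.17 in PD03 cells, with a DMSO mean of 9.28. Dusp6, the cytoplasmic ERK phosphatase, read 10.41, 10.38 and 10.45 in CHIR cells and 9.40, 9.32 and 9.30 in PD03 cells, with a DMSO mean of 11.06. Both were below DMSO in both groups, Dusp4 by −0.84 in CHIR cells and −2.18 in PD03 cells, Dusp6 by −0.65 in CHIR cells and −1.72 in PD03 cells. The direct differences were 1.33 ± 0.06 for Dusp4 and 1.07 ± 0.06 for Dusp6. Etv1 (0.72), Spred1 (0.72), Spry2 (0.51), Dusp1 (0.30) and Spry1 (0.22) were also higher in CHIR than in PD03 cells. Dusp5 fell by 0.12, and Etv5 differed by 0.05 (adjusted p = 0.342), although its other probe set differed by 0.22. The CCGGAAG letters that ETS factors recognise were in 8.86% of all windows and in 0 of the 9 windows of the members that were higher.

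Immediate early genes did not follow the feedback genes. Of 21 members 1 was higher and 8 were lower in CHIR cells. The one that was higher was Egr1, the zinc finger factor induced by ERK. It read 7.0, 6.93 and 6.90 in CHIR cells and 6.35, 6.41 and 6.45 in PD03 cells, a difference of 0.54 ± 0.09. Egr1 was 0.10 from DMSO in CHIR cells (limma, adjusted p = 0.537) and −0.45 from it in PD03 cells. Those that fell were Klf6 (−1.24), Jund (−0.80), Btg2 (−0.73), Jun (−0.60), Ccn1 (−0.60), Arc (−0.48), Ccn2 (−0.42) and Zfp36 (−0.21). Klf6 was −0.57 from DMSO in CHIR cells and 0.67 above it in PD03 cells. Jun was −0.42 from DMSO in CHIR cells and 0.18 in PD03 cells.

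Genes of the actin cytoskeleton and of SRF, a transcription factor that responds to the state of actin, showed the same direction at 12 of 24 members, with 3 higher. Rhob, a small GTPase outside this list with the lowest difference of all genes, read 6.57, 6.67 and 6.85 in CHIR cells and 8.89, 8.69 and 8.95 in PD03 cells. The groups were 2.15 ± 0.07 apart, so Rhob was 4.44-fold lower in CHIR cells (limma, adjusted p = 9.76e-12). It was −0.52 from DMSO in CHIR cells and 1.63 in PD03 cells. Anxa2, which encodes the membrane- and actin-binding annexin A2, read 7.86, 8.34 and 8.10 in CHIR cells and 9.82, 9.97 and 9.93 in PD03 cells, a difference of −1.80 ± 0.12. The calponin gene Cnn2 was −0.96 lower, caldesmon (Cald1) −0.69 and tropomyosin 1 (Tpm1) −0.48. Zyx, the focal adhesion protein zyxin, was 0.69 higher.

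The window of Anxa2 (chr9:69453433-69453732, plus strand, GRCm38.p6, RefSeq) is printed because it holds the AP-1 letters TGAGTCA, which Jun family proteins recognise and which are in capitals. They begin −95 bases from the start.
Anxa2: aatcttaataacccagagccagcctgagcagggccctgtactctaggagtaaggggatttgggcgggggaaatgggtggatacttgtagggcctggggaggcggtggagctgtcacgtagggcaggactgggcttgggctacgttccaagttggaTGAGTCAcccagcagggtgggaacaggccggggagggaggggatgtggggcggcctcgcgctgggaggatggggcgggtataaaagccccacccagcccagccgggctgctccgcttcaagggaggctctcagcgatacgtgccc
The same letters, on either strand, were in 5.2% of all windows, in 3 of the 14 windows of the 15 genes with the lowest differences and in 0 of the 11 windows of the 15 with the highest. The other 2 of the 3 were windows of Mme that overlap each other. Over all genes at least 2-fold apart, the AP-1 letters were in 2 of 69 windows of the higher genes (2.9%) and 5 of 56 windows of the lower genes (8.93%). For the TCF/LEF letters the counts were 3 of 11 windows for the highest genes, those of Gmnc, Itga1 and Nlrc4, and 0 of 14 for the lowest. Over the 2-fold genes they were 9 of 69 (13.0%) for the higher and 4 of 56 (7.14%) for the lower. Of each 15 genes 10 had a window.

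FGF ligands, receptors and the RAS-ERK cascade were higher at 2 and lower at 6 of 19 measured members. Rasgrp1, an exchange factor that activates RAS, was 1.35 ± 0.06 higher in CHIR cells and above DMSO in both groups, by 2.47 in CHIR cells and 1.12 in PD03 cells. Fgf4, the ligand that ES cells make for themselves, read 11.19, 11.16 and 11.18 in CHIR cells and 11.93, 11.97 and 11.93 in PD03 cells. Its arrays did not overlap, and it fell by 0.77 ± 0.04 (limma, adjusted p = 5.55e-10). The receptor gene Fgfr2 was −1.17 lower and Fgfr1 −0.40 lower.

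**Figure D2:**
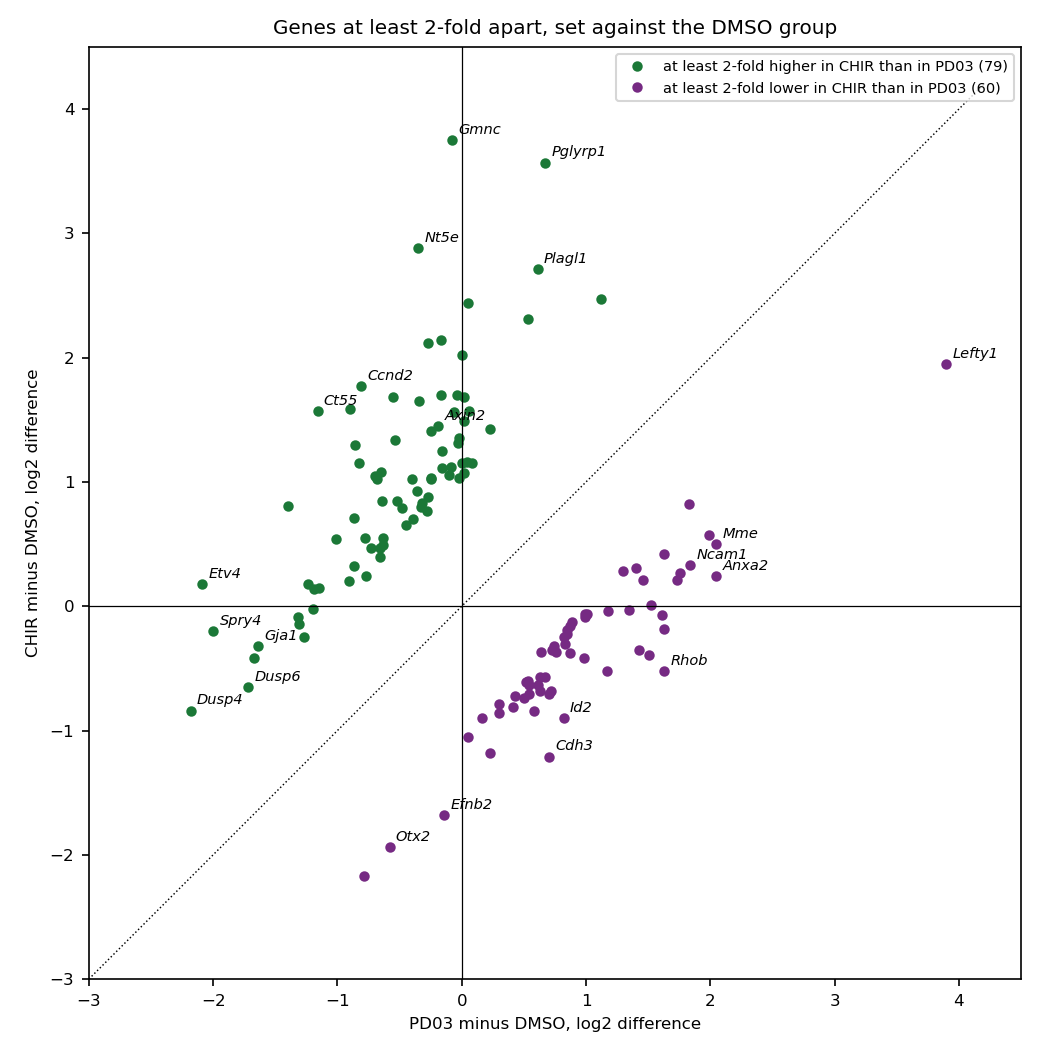
Each of the 139 genes at least 2-fold apart between CHIR and PD03 cells, placed by its log2 difference between PD03 and DMSO cells (horizontal) and between CHIR and DMSO cells (vertical), with 79 genes higher and 60 lower in CHIR cells in separate colours. Both axes use the DMSO arrays, and the distance from the dotted line of equal values is fixed by the choice of genes; Gmnc lies at 3.75 in CHIR and −0.08 in PD03 cells, Etv4 at 0.18 and −2.09, and Lefty1 at 1.95 and 3.90.

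Naive pluripotency genes split between the inhibitors. Of 18 members 6 were higher and 5 lower in CHIR cells, and the median difference was −0.00. The higher ones were Spic (0.82), Klf4 (0.58), Tbx3 (0.55), Nr5a2 (0.50), Tfcp2l1 (0.49) and Gbx2 (0.28), all transcription factors. Those lower were the DNA-binding factors Prdm14 (−0.54) and Klf2 (−0.24), with Fgf4 (−0.77), the adhesion gene Jam2 (−0.39) and the kinase cofactor gene Tcl1 (−0.22). Against DMSO, 15 of the 18 were higher and 2 lower in CHIR cells (10% and 10.8% of all genes). In PD03 cells 15 were higher and 1 was lower than in DMSO cells (8.67% and 8.15% of all genes).

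The split ran through the Klf factors. Klf4 read 8.39, 8.33 and 8.24 in CHIR cells and 7.95, 7.57 and 7.71 in PD03 cells. Klf2 read 9.70, 9.67 and 9.70 in CHIR cells and 9.93, 9.96 and 9.90 in PD03 cells. The arrays of the groups did not overlap for either gene: Klf4 was 0.58 ± 0.09 higher (adjusted p = 0.000168) and Klf2 −0.24 ± 0.04 lower (adjusted p = 0.00015) by limma. Klf4 averaged 9.91 in 2iLIF cells and 7.14 in DMSO cells, and Klf2 10.10 in 2iLIF cells and 8.73 in DMSO cells. Prdm14, a repressor of FGF signalling and DNA methylation genes, read 8.36, 8.43 and 8.51 in CHIR cells and 8.96, 8.98 and 8.98 in PD03 cells, above a DMSO mean of 7.06. Tfcp2l1 read 11.03, 11.06 and 11.02 in CHIR cells and 10.54, 10.60 and 10.51 in PD03 cells, above a DMSO mean of 10.02.

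The core factors were close. Pou5f1 differed by −0.03 ± 0.03 (adjusted p = 0.624), with the opposite sign under median centring, and Sox2 by −0.07 ± 0.04 (adjusted p = 0.299). Nanog read 12.43, 12.44 and 12.45 in CHIR cells and 12.56, 12.54 and 12.60 in PD03 cells. Its arrays did not overlap, but the difference of −0.12 ± 0.04 did not pass (limma, adjusted p = 0.0525), and it passed in 4 of 13 alternatives. Of 13 general pluripotency genes Lin28a (0.31) and Lin28b (0.24) were higher, and Sall1 (−0.61) and Dppa5a (−0.20) lower, with 3 higher and 2 lower under median centring. The share that passed, 30.8%, was near that of all genes (25.8%).

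Genes of the formative and primed epiblast were below DMSO in both groups at 13 of 18 members each. Of all genes, 10.8% were below DMSO in CHIR cells and 8.15% in PD03 cells. Between the groups, 5 members were higher and 4 lower in CHIR cells. Otx2, the factor that leads ES cells out of the naive state, showed the widest gap. It read 9.69, 9.55 and 9.68 in CHIR cells and 11, 10.97 and 11.04 in PD03 cells, with a mean of 11.58 in DMSO cells and 7.98 in 2iLIF cells. The CHIR arrays were below every PD03 array, by 1.36 ± 0.06 on the mean, which is 2.58-fold (limma, adjusted p = 4.28e-10). Pim2, a survival kinase, was 0.91 ± 0.13 higher in CHIR cells and below DMSO in both groups, by −0.72 in CHIR cells and −1.63 in PD03 cells. Fgf5, a standard primed marker, differed by 0.21 ± 0.14 (adjusted p = 0.304), and it was −1.02 from DMSO in CHIR cells and −1.23 in PD03 cells. Of 9 genes on the DNA methylation list 6 were lower in CHIR cells. They included Tet1 (−0.33), Dnmt3a (−0.14) and, lowest, Prdm14 (−0.54), which was also counted among the naive genes. The count was 3 with median centring and 2 or 3 without CHIR replicate 2, CHIR replicate 3 or any one PD03 replicate.

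Nodal pathway genes were higher at 1 and lower at 6 of 16 members, and at 4 and 6 with median centring. Lefty1, a secreted Nodal antagonist and Nodal target, read 8.30, 8.35 and 8.43 in CHIR cells, 10.21, 10.30 and 10.41 in PD03 cells, and 6.41 on average in DMSO cells. CHIR arrays lay between the DMSO and the PD03 arrays, 1.95 above DMSO, while PD03 cells were 3.90 above it. The direct difference was −1.95 ± 0.13 (limma, adjusted p = 1.83e-08). Lefty2 differed by −0.90 ± 0.07, with CHIR cells 2.0 and PD03 cells 2.90 above DMSO. The Lefty genes are close in sequence, and how far their probe sets tell them apart is not stated by any source used. Nodal itself was 0.12 ± 0.04 higher in CHIR cells (adjusted p = 0.0365), which failed in 6 of 13 alternatives (highest adjusted p = 0.109), and the transducer Smad3 was −0.35 lower.

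The Id genes, inhibitors of basic helix-loop-helix factors and known BMP targets, did not move together. Id3 read 8.33, 8.51 and 8.66 in CHIR cells and 7.10, 6.81 and 7.10 in PD03 cells. Id2 read 7.10, 7.39 and 7.04 in CHIR cells and 9.07, 8.80 and 8.81 in PD03 cells. Neither pair of groups overlapped, and the signs were opposite: Id3 was 1.5 ± 0.10 higher (adjusted p = 2.68e-08) and Id2 −1.72 ± 0.10 lower (adjusted p = 4.6e-09) by limma. Around DMSO, Id3 was 0.85 in CHIR cells and −0.64 in PD03 cells, and Id2 −0.90 in CHIR cells and 0.82 in PD03 cells. Id1 differed by 0.22 (adjusted p = 0.0166), and did not pass without CHIR replicate 1, CHIR replicate 3 or PD03 replicate 3. Bmp4 was 0.94 ± 0.08 higher in CHIR cells, 0.81 above DMSO there and −0.12 from it in PD03 cells. Of the 17 genes of the BMP list 3 were higher and 4 lower, with 5 higher and 2 lower under median centring and 2 and 2 without CHIR replicate 3.

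Lineage genes differed by type. Of 16 measured primitive streak and caudal factors 6 were higher in CHIR cells and 0 were lower. Nkx1-2, a homeobox gene of the caudal epiblast, read 8.56, 8.37 and 8.51 in CHIR cells and 7.14, 7.05 and 7.23 in PD03 cells, a difference of 1.34 ± 0.06 (limma, adjusted p = 4.28e-10). The PD03 arrays were at the DMSO level, −0.03 from it. Eomes (0.44), Cdx1 (0.38), Evx1 (0.25), Cdx4 (0.24) and Cdx2 (0.19) were the others, and Cdx1 and Cdx2 also stand on the Wnt list. Cdx2 overlapped between the groups, and its call was lost in 7 of 13 alternatives.

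Of 13 neural genes 0 were higher and 4 lower, a share near that of all genes (25.8%), with a list median of −0.02. The 4 were Pax6, Tubb3, Nes and Ncam1, while the neurofilament gene Nefm, outside the list, was 2.02 higher in CHIR cells. Pax6, a factor of the neural plate and eye, read 7.05, 7.02 and 7.03 in CHIR cells and 8.19, 8.22 and 8.16 in PD03 cells. Tubb3, a neuronal tubulin, read 8.40, 8.43 and 8.30 in CHIR cells and 9.42, 9.33 and 9.25 in PD03 cells. Neither gene's groups overlapped, with differences of −1.15 ± 0.05 and −0.96 ± 0.07. The intermediate filament gene Nes was −1.01 lower and the adhesion gene Ncam1 −1.51 lower. The mean of 5 neural markers was 7.19 to 7.23 on CHIR arrays, 7.85 to 7.90 on PD03 arrays and 7.51 to 7.55 on DMSO arrays; 3 of the 5 were lower and the least of them averaged 5.53. Whether some cells of another type take part was not tested, and in bulk RNA fewer cells of a type and less RNA per cell cannot be told apart.

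Of 19 extra-embryonic endoderm genes 6 were lower and 1 was higher in CHIR cells. Those lower were Srgn (−0.95), Sparc (−0.79), Lrp2 (−0.78), Gata4 (−0.31), Lama1 (−0.30) and Cubn (−0.14). Sparc, a matrix protein, read 11.32, 11.34 and 11.36 in CHIR cells and 12.14, 12.13 and 12.09 in PD03 cells. Of 7 defining endoderm markers Gata4 alone passed, and their mean was 6.56 to 6.60 on CHIR arrays and 6.62 to 6.70 on PD03 arrays. Trophoblast genes were higher at 3 and lower at 1 of 13 (30.8%, against 25.8% of all genes), with Tfap2a 0.50 higher and Plet1 −0.93 lower. Eomes and Cdx2, the others that were higher, were also counted among the streak and caudal factors. Germ line genes were higher at 4 of 16 (Dazl, Stk31, Ddx4 and Piwil2, by 0.22 to 0.53) and lower at 0. The share of germ line genes that passed was near that of all genes (25.8%). Of the 2 measured genes of the 2-cell stage 0 passed in limma.

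Epithelial junction and keratin genes were mostly lower in CHIR cells. Of 14 members 11 were lower and 0 were higher, with a median of −0.28. Krt8, a simple epithelial keratin, read 9.19, 9.09 and 9.03 in CHIR cells and 10.06, 10.09 and 10.06 in PD03 cells, a difference of −0.97 ± 0.07. The claudins, which seal tight junctions, were lower too: Cldn7 by −0.72, Cldn4 by −0.66 and Cldn6 by −0.40. Epcam differed by −0.27 and E-cadherin (Cdh1) by −0.16. Cdh3, the P-cadherin gene, was outside the list and fell further. It read 9.28, 9.27 and 9.22 in CHIR cells and 11.15, 11.18 and 11.17 in PD03 cells, a difference of −1.91 ± 0.04 or 3.75-fold (limma, adjusted p = 2.15e-14), with DMSO cells between at 10.46. Against DMSO, 10 epithelial genes were lower and 0 higher in CHIR cells (10.8% and 10% of all genes). In PD03 cells 5 were lower and 2 higher than in DMSO cells (8.15% and 8.67% of all genes). N-cadherin (Cdh2), on the mesenchymal list of 9 genes with 2 higher and 1 lower (1 and 0 without CHIR replicate 1), was 0.37 higher.

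The other genes with the lowest differences by the rule were Calcoco2 (−1.82), Cdhr1 (−1.77), Pde1b (−1.69), Krt17 (−1.68), Mme (−1.55), Efnb2 (−1.54), Myof (−1.52), Hhip (−1.51) and Dsp (−1.49). They include a desmosome protein (Dsp), the membrane repair protein myoferlin (Myof), the peptidase neprilysin (Mme) and the Hedgehog-binding protein Hhip. A further probe set of Calcoco2 differed by −2.71. Hhip was 0.01 from DMSO in CHIR cells and 1.52 above it in PD03 cells. Krt17 was −0.07 from DMSO in CHIR cells and 1.61 in PD03 cells. Efnb2, the ligand ephrin-B2, instead lay near DMSO in PD03 cells (−0.14) and at −1.68 from it in CHIR cells.

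Integrins, laminins and basement membrane genes were lower in CHIR cells at 14 of 30 members and higher at 2. The perlecan gene Hspg2 and the nidogen gene Nid1 were −0.79 lower each, the fibronectin receptor subunit Itga5 −0.70 lower and Lamb2 −0.52 lower. Nid1 was 0.22 from DMSO in CHIR cells and 1.01 above it in PD03 cells. Against DMSO, 4 members were higher and 4 lower in CHIR cells (10% and 10.8% of all genes). In PD03 cells 12 were higher and 3 lower than in DMSO cells (8.67% and 8.15% of all genes). Of 33 Eph receptors, ephrins, semaphorins and plexins 8 were higher and 13 lower, against 8 and 8 with median centring. Epha1 (1.75), Epha7 (1.55) and Sema6a (1.25) were higher, and Epha7 read 9.79, 9.88 and 9.72 in CHIR cells and 8.25, 8.23 and 8.26 in PD03 cells. From DMSO, Epha1 was 1.05, Epha7 0.54 and Sema6a −0.42 in CHIR cells. In PD03 cells these values were −0.70, −1.01 and −1.67.

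Notch pathway genes were lower at 8 of 15 members, with 1 higher and a median of −0.28. The receptors Notch1 (−0.68), Notch3 (−0.62) and Notch2 (−0.41), the ligands Jag2 (−0.51), Dll1 (−0.39) and Dll3 (−0.31), the modifier Lfng (−0.55) and the DNA-binding partner Rbpj (−0.28) fell. The ligand Jag1 rose by 0.52. Notch1 read 9.14, 9.19 and 9.04 in CHIR cells and 9.81, 9.88 and 9.73 in PD03 cells, on either side of the DMSO mean of 9.43. Among 9 retinoic acid response genes 4 were lower and 1 was higher, led by the retinoid carrier gene Crabp2, which fell by 1.41 ± 0.10.

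**Figure D3:**
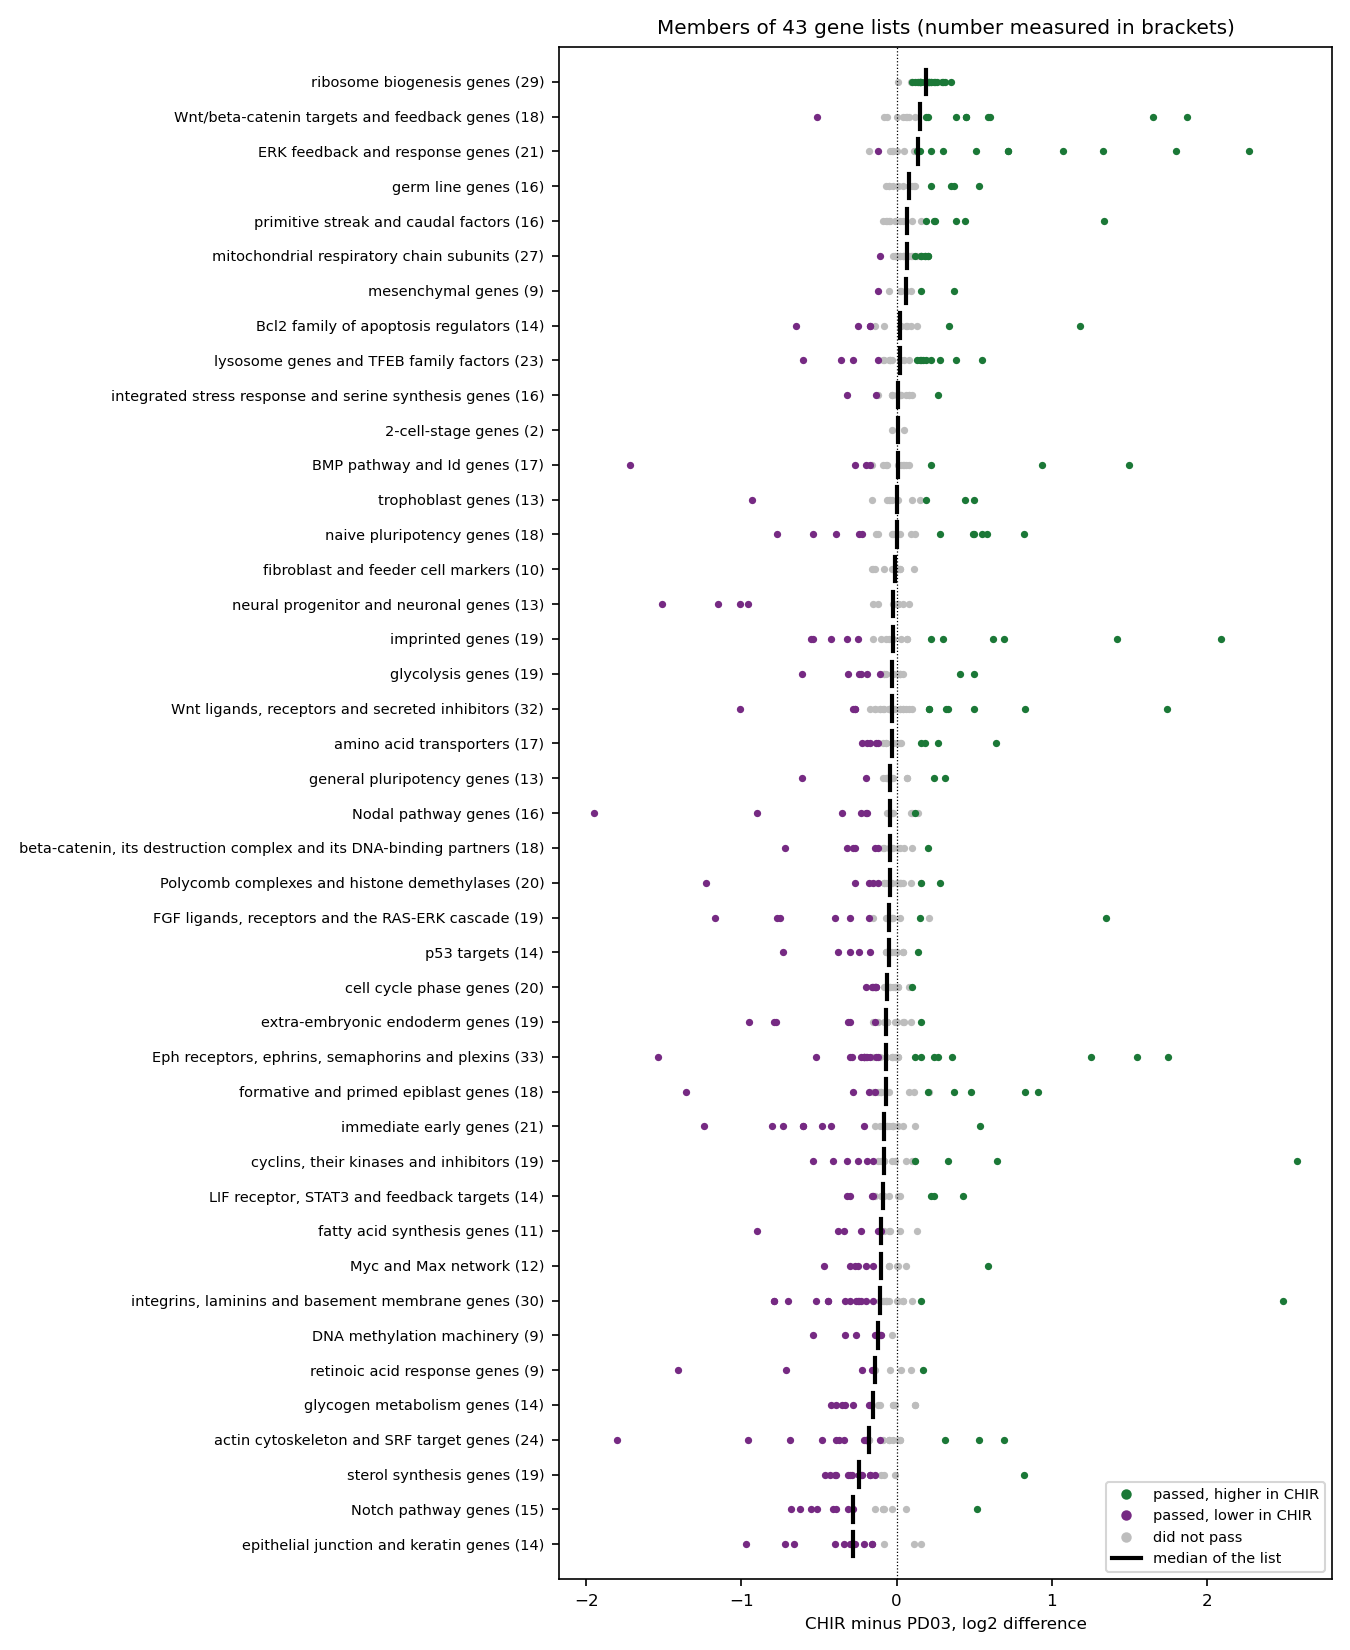
CHIR minus PD03 log2 difference (horizontal axis) of every measured member of 43 gene lists, one row per list in order of its median, with members that passed in colour, the others in grey and the median as a bar. Ribosome biogenesis has the highest median, 0.19, and the epithelial and Notch lists the lowest, −0.28 each; some genes stand on several lists.

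Ribosome biogenesis genes were higher in CHIR cells almost throughout, by small amounts. Of 29 measured members 24 rose and 0 fell, with a median of 0.19 and a highest difference of 0.35. Rrs1, an assembly factor of the large subunit, read 8.92, 8.87 and 8.75 in CHIR cells and 8.55, 8.5 and 8.42 in PD03 cells. Gnl3, the nucleolar protein nucleostemin, read 11.69, 11.73 and 11.74 in CHIR cells and 11.42, 11.37 and 11.43 in PD03 cells. The arrays of the groups did not overlap at 27 of the 29 genes, against 41.6% of all genes. In CHIR cells 8 members were higher than DMSO and 0 lower (10% and 10.8% of all genes). In PD03 cells 0 were higher than DMSO and 11 lower (8.67% and 8.15% of all genes). Myc, a known driver of these genes, read 9.56, 9.12 and 9.42 in CHIR cells and 8.90, 8.71 and 8.72 in PD03 cells. Myc was 0.59 ± 0.13 higher (limma, adjusted p = 0.00247), while Mycn was −0.47 lower and the antagonists Mxd4, Mxd3, Mxd1, Mnt and Mga were −0.30 to −0.15 lower. Myc was below DMSO in both groups, by −0.41 in CHIR cells and −1.0 in PD03 cells. Whether Myc bears on the ribosome biogenesis genes was not tested.

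Sterol synthesis genes ran the other way. Of 19 measured members 15 were lower and 1 higher in CHIR cells, with a median of −0.24. Hmgcs1, which makes HMG-CoA, read 11.46, 11.45 and 11.48 in CHIR cells and 11.90, 11.85 and 11.94 in PD03 cells, a difference of −0.43 ± 0.04 (limma, adjusted p = 6.6e-07). Pmvk (−0.46), Mvk (−0.40), Dhcr7 (−0.39) and Srebf2 (−0.31), the factor that drives the pathway, were lower too. Ebp, the sterol isomerase, was the one that rose, by 0.82 ± 0.05, and was 1.12 above DMSO in CHIR cells and 0.30 in PD03 cells. The list was lower than DMSO at 14 members in CHIR cells, with 1 higher (10.8% and 10% of all genes). In PD03 cells it was higher than DMSO at 4 members, with 0 lower (8.67% and 8.15% of all genes).

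**Figure D4:**
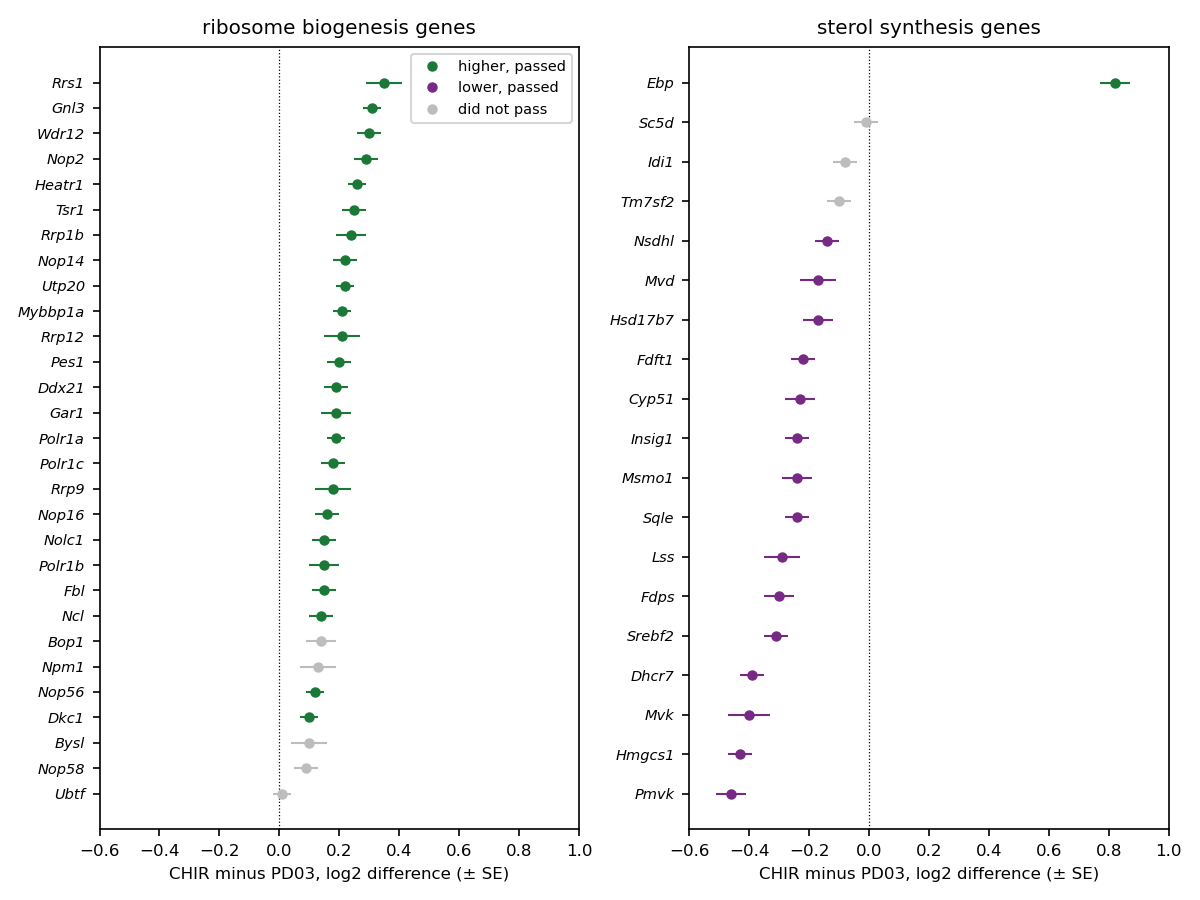
CHIR minus PD03 log2 difference ± SE of each measured gene of ribosome biogenesis (left) and sterol synthesis (right). All 29 ribosome biogenesis values are above 0, from 0.01 to 0.35, and 18 of the 19 sterol values are below 0, with Ebp at 0.82.

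Other metabolic lists were lower in CHIR cells at part of their members. Fatty acid synthesis was lower at 6 of 11 with 0 higher, led by Acss2, the cytosolic acetyl-CoA synthetase, at −0.90 ± 0.07. Glycogen metabolism was lower at 7 of 14 with 0 higher. Its members included glycogen synthase (Gys1), a direct substrate of GSK3 as a protein, whose transcript read 10.21, 10.13 and 10.21 in CHIR cells and 10.58, 10.58 and 10.54 in PD03 cells. Gys1 fell by 0.39 ± 0.04, and Gyg, the glycogenin that primes the polymer, by 0.42. Of 19 glycolysis genes 2 were higher and 6 lower, with Pdk1 0.50 higher and the lactate exporter gene Slc16a3 −0.61 lower. Of 27 respiratory chain subunits 7 were higher and 1 lower (29.6%, against 25.8% of all genes), all within 0.20. With median centring 14 were higher and 0 lower, and the number that passed was 4 without CHIR replicate 3 or PD03 replicate 1 and 5 without CHIR replicate 2 or PD03 replicate 2. Lysosome genes were higher at 9 and lower at 4 of 23, with Hexa 0.55 higher and the factor Mitf −0.60 lower. A further probe set of Mitf, at a low mean level of 4.79, differed by 0.08.

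Lists of survival and stress differed at single genes. Pmaip1, which encodes the pro-apoptotic protein Noxa, read 9.93, 9.93 and 9.89 in CHIR cells and 8.65, 8.70 and 8.85 in PD03 cells. That is a difference of 1.18 ± 0.08 (limma, adjusted p = 3.44e-08), with CHIR cells at the DMSO level (−0.02) and PD03 cells −1.20 from it. Bmf, another BH3-only gene, was −0.65 ± 0.07 lower, with CHIR cells −0.72 from DMSO and PD03 cells −0.07. Of 14 Bcl2 family genes 2 were higher and 4 lower (3 and 2 with median centring), and of 14 p53 targets 1 was higher and 5 lower (1 and 3). Of 16 genes of the integrated stress response and serine synthesis 1 was higher and 2 were lower (18.8%, against 25.8% of all genes). With median centring 4 were higher and 1 lower. Of 14 genes of the LIF receptor and STAT3 pathway 3 were higher and 4 lower (3 and 2 with median centring), with Il6ra 0.43 higher and Lifr −0.32 lower, and the feedback gene Socs3 differed by −0.08 (adjusted p = 0.522). Among 17 amino acid transporters 4 were higher and 5 lower, against 4 and 2 with median centring. Of 20 Polycomb and histone demethylase genes 2 were higher and 5 lower, against 4 and 2 with median centring, and Phf19, a partner of PRC2, differed by −1.23 ± 0.05.

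Imprinted genes were higher at 6 and lower at 5 of 19 measured members. Plagl1, a zinc finger factor, read 9.69, 9.81 and 9.71 in CHIR cells and 7.64, 7.71 and 7.59 in PD03 cells, with 10.63 on average in 2iLIF cells and 7.03 in DMSO cells. Peg10, a gene derived from a retrotransposon, was 1.42 ± 0.07 higher and its neighbour Sgce 0.69 higher. Against DMSO, Peg10 was 0.18 in CHIR cells and −1.24 in PD03 cells, and Sgce 0.10 and −0.60. The maternally expressed noncoding RNAs Meg3 (−0.55) and Rian (−0.54) were lower in CHIR cells.

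MicroRNA genes were examined after the values were seen, and they are not part of the rule for named genes. A probe set for such a gene does not separate the mature RNA from its precursor or host transcript, and many of the levels are near the 25th percentile of all genes, 5.84. Of 297 measured microRNA genes 64 passed (21.5%, against 25.8% of all genes), 23 higher and 41 lower in CHIR cells, and 24 of the 41 lie in 1 cluster on chromosome 12. Grouped by RefSeq position, with neighbours within 10 kb joined, 7 clusters held 4 or more measured genes, and since neighbours can share a primary transcript, they are not independent. Mature sequences from the 3 clusters that were higher in CHIR cells are printed 5′ to 3′ from RefSeq (GRCm38.p6), with the seed, bases 2 to 8, in capitals, to show which members share a seed and which do not.
mmu-miR-302b-3p: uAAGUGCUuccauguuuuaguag
mmu-miR-302d-3p: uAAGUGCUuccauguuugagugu
mmu-miR-302c-3p: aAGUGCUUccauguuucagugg
mmu-miR-17-5p: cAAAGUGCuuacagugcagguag
mmu-miR-20a-5p: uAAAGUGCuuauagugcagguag
mmu-miR-20b-5p: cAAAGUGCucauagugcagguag
mmu-miR-106a-5p: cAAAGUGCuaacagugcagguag
mmu-miR-367-3p: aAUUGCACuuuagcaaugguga
mmu-miR-363-3p: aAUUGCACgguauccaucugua
mmu-miR-92a-3p: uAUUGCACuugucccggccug
mmu-miR-19a-3p: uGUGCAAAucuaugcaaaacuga
mmu-miR-19b-3p: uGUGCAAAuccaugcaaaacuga
mmu-miR-18a-5p: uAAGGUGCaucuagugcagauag
The seed AAAGUGC is common to miR-17, miR-20a, miR-20b and miR-106a, the seed AUUGCAC to miR-367, miR-363 and miR-92a, and the seed GUGCAAA to miR-19a and miR-19b. The seed AAGUGCU of miR-302b and miR-302d is offset by 1 base from that of the first set. The seeds of miR-302c (AGUGCUU) and miR-18a (AAGGUGC) are each carried by 1 of the sequences printed.

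All 5 measured genes of the Mir302 and Mir367 cluster on chromosome 3, known as specific to pluripotent cells, were higher in CHIR cells, with a median of 0.96. Mir302b read 6.20, 6.24 and 6.43 in CHIR cells, against 5.32, 4.96 and 5.06 in PD03 cells. Its groups did not overlap, and the difference was 1.18 ± 0.19 (limma, adjusted p = 0.000207). On chromosome X all 5 genes from Mir363 to Mir106a were higher, with a median of 0.87. Mir363 read 8.96, 8.88 and 8.94 in CHIR cells and 8.01, 7.58 and 7.69 in PD03 cells, with CHIR cells −0.14 and PD03 cells −1.31 from DMSO. On chromosome 14 all 5 genes of the Mir17 to Mir19b-1 cluster were higher, by 0.33 to 0.47.

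The cluster of 30 genes on chromosome 12 from Mir379 to Mir369 was lower in CHIR cells at 24 members and higher at 0, with a median of −0.30. It lies in the imprinted domain of Meg3 and Rian, which were also lower. A second group of 7 genes there, from Mir337 to Mir136, was lower at 2. Clusters on chromosome X from Mir500 to Mir532 and from Mir450b to Mir542 had 1 of 5 and 0 of 4 members past the threshold. Mir200b, of the family known to keep cells epithelial, was −0.63 ± 0.06 lower in CHIR cells, reading 6.01, 6.01 and 6.06 in CHIR cells and 6.66, 6.69 and 6.62 in PD03 cells.

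**Figure D5:**
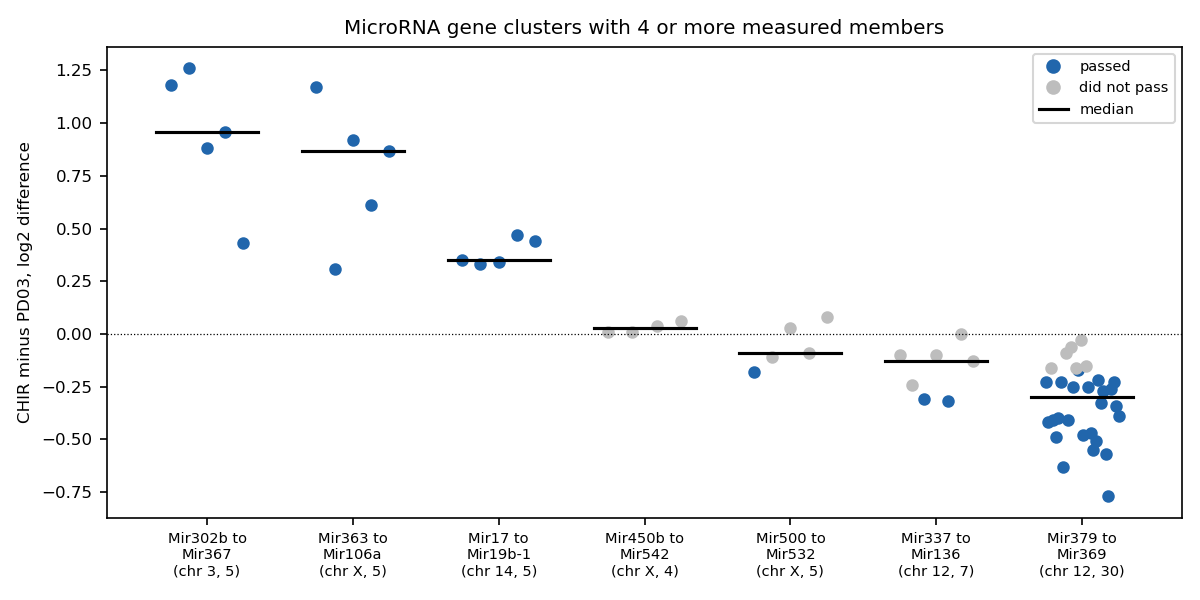
CHIR minus PD03 log2 difference of each measured gene in 7 microRNA gene clusters (one column per cluster, with its chromosome and number of measured genes), with genes that passed in blue, the others in grey and the median as a bar. All 5 genes of each of the clusters on the left (medians 0.96, 0.87 and 0.35) are above 0, and the 30 genes of the cluster on the right have a median of −0.30.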

How the data were processed

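Total RNA of the 15 samples was hybridised to Affymetrix whole-transcript arrays. The authors deposited log2 values per probe set summarised with RMA, per the submitters' processing notes. No source used gives the RMA version. RMA includes quantile normalization, so a shift shared by most genes is not visible, and it compresses differences of weak genes. Values of its 34760 probe sets ran from 3.74 to 13.99. The platform annotation gave 21640 sets exactly 1 symbol and 1321 several, and 11799 are unnamed here; of the 21640, 21553 matched the RefSeq gene table. For the 954 genes with several sets, the set with the highest mean over 15 arrays was used, which left 19937 genes. No level filter and no detection calls were applied, so a low value may be background. All columns matched a sample (0 unused).

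With limma 3.58.1 (lmFit and eBayes, R 4.3.3), 1 model of the 5 groups on 15 arrays gave CHIR minus PD03, CHIR minus DMSO and PD03 minus DMSO with two-sided p-values, Benjamini-Hochberg adjusted over all genes. It had 10 residual and 5.09 prior degrees of freedom, and the 3 arrays per group limit the precision to a median SE of 0.0509. Members of 43 gene lists (750 of 792 entries measured; the others are not reported here) were counted with no set test. The rule for named genes took the 15 highest and 15 lowest differences among genes that passed without overlap (predicted genes and microRNA genes left out), up to 4 members per list, and a short list whatever its result; not all are printed. The comparison, the lists and the rule were chosen with earlier results of these data known. Motifs were searched on both strands of RefSeq promoter windows. The limma procedure was tested on simulated data. Alternatives were a replicate block, the 6 arrays alone, a level filter, mean probe sets, a trended and robust prior, array weights, median centring and leaving out each array. No source used gives the build behind the array annotation. Proteins were not used here.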

Additional observations from a re-analysis of the deposited data

Results flagged for a closer look

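Probe sets without a gene name were outside the comparisons above. Of the 11799 such sets, 348 (2.95%) passed in a separate limma fit of CHIR minus PD03, adjusted over these sets alone. That share therefore has a different basis from the share of the named genes. Of the 348 sets, 156 were higher and 192 lower in CHIR cells, and 19 differed by at least 2-fold. They are given here as counts because no gene can be named for them, and they drew attention as a signal in data that the comparison did not use.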

How the results depend on the processing

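The replicate number as a block gave 4999 genes past the threshold, the 6 arrays alone 5335, a filter at the 25th percentile of level 5251, the mean of a gene's probe sets 5162, a trended and robust prior 5420, array weights 6248 and median centring 5575. Leaving out 1 array gave 3980 (without PD03 replicate 2) to 4738, and the 2-fold count then ran from 136 to 142. Named genes past the threshold against DMSO ran from 131 to 139 for CHIR and from 112 to 119 for PD03 without 1 array. Of 190 named genes, 184 passed, 19 lost the call under at least 1 of 13 alternatives (Aurkb, Cdc20, Cdx2, Ctnnb1, Dnmt3a, Evx1, Fn1, Id1, Kdm6a, Lef1, Lin28b, Ndufa1, Ndufs1, Nodal, Plk1, Sesn1, Stc2, Tet3 and Zeb2) and 3 gained it (Etv5, Fgf5 and Nanog). The sign turned for Pou5f1 (0.03 under median centring) and Socs3 (0.01 with the mean of its probe sets), neither past the threshold. Same-numbered CHIR and PD03 arrays deviated with correlations of −0.157, −0.23 and 0.088, and differently numbered ones with −0.163 to 0.277. With 3 arrays per group these values cannot tell whether the numbers mark pairs. In limma, the block cost Cdx2 (adjusted p = 0.0701) and Nodal (0.0571) their calls and no other named gene. The CHIR minus PD03 difference of the array medians, which centring removes, was −0.056, a size that matters for lists with small differences (cell cycle phases, respiratory chain, DNA methylation, stress response). Centring moved the median difference over all genes from −0.014 to 0.042, further from 0, so the centred counts carry a shift of their own. Of 43 lists, the number of members past the threshold moved by over 1.5 times somewhere in 7, and median centring changed which direction held more members in 10. The cause was not tested.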

Other observations

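Other genes at least 2-fold apart, picked for their known roles after their values were seen, are given here as values. The transcription factor genes Ebf1, En2 and Meis2 were 1.70, 1.37 and 1.15 higher in CHIR than in PD03 cells (limma, log2). Trh, which encodes thyrotropin-releasing hormone, read 12.50, 12.46 and 12.51 in CHIR cells and 10.68, 10.46 and 10.70 in PD03 cells. Nefl, a neurofilament light chain gene, was 1.78 higher, and Gja1, the gap junction gene of connexin 43, 1.32 higher. Among genes lower in CHIR cells, Dpysl3, a cytoskeletal regulator of axons, read 8.08, 7.90 and 7.97 in CHIR cells and 9.42, 9.28 and 9.40 in PD03 cells. The small GTPase genes Rnd3 and Mras differed by −1.24 each, the adhesion gene Mcam by −1.22 and the growth factor binding protein gene Igfbp5 by −1.09.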
